A study of Mus musculus with 15 samples.

Results

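The genes described here are 35 secreted immune mediators: 5 members of the interleukin-1 family, 4 of the TNF superfamily, 7 other interleukins and interferon-γ, the colony-stimulating factor Csf1, 10 CC chemokines and 8 CXC chemokines. They were taken by gene symbol from the 19348 gene IDs of the liver RNA-seq table, and each symbol had exactly 1 row. The choice used no measured value as a criterion, but it was made with earlier results of these data known. Liver RNA had been sequenced from 2-week-old Stab1-/- mice (n = 4), 2-week-old wildtype mice (n = 4), Stab1-/- samples of embryonic day E17.5 (n = 3) and wildtype samples of E17.5 (n = 4). Stab1 encodes Clever-1, a scavenger receptor of sinusoidal and lymphatic endothelium and of some macrophages, and the Stab1-/- mice lack it in every cell. Both genotypes carry the mixed C57BL/6N;129SvJ background, and none of the groups was treated. The comparisons asked how the absence of Clever-1 and the age of the animal go along with the transcript levels of these mediators in whole liver. Whether the samples came from separate litters is not stated in the sources used here, so p-values measure the spread between these samples.

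Cytokines are small secreted or membrane-bound proteins that act on nearby cells through dedicated receptors, and chemokines are those that steer the migration of leukocytes. In the liver they are made by Kupffer cells, sinusoidal endothelium, stellate cells, lymphocytes and hepatocytes. Before birth the liver is a site of blood formation, with many erythroid and myeloid precursors among the hepatocytes. In whole-tissue RNA, fewer cells of a type and less RNA per cell cannot be told apart.

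In units of 1000 reads, 9659 to 10964 per library fell on genes. Stab1 itself had 68 to 119 reads per library in 2-week-old Stab1-/- livers against 579 to 941 in wildtype, and 301 to 443 against 1244 to 1868 at E17.5. The groups did not overlap at either age, and the log2 fold changes were −3.19 ± 0.20 (SE; adjusted p = 5.2e-06, edgeR's quasi-likelihood test) and −1.91 ± 0.15 (adjusted p = 0.00101). The remaining Stab1 reads were spread over part of the gene model, for example 26.2% of it in 1 library of 2-week-old Stab1-/- mice. The hepatocyte markers were abundant in every library, with a summed level of 49820 to 94900 RPKM for 6 genes. RPKM, as deposited by the authors, scales the reads of a gene by its length and by all reads counted on genes in that library. Blood-cell markers differed strongly by age: 7 erythroid genes together reached 1717 to 2715 RPKM at E17.5 and 71.3 to 134 RPKM at 2 weeks.

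The promoters of 4 chemokines that rose with age are shown here, because 3 of them lie in 1 stretch of chromosome 5 and differ in the motifs they carry, and the fourth belongs to the most abundant member at 2 weeks. Each is 250 bases before to 50 bases after a transcript start in RefSeq on GRCm38.p6, written 5′ to 3′ on the gene's own strand. The build behind the deposited reads is not given in the sources used here. They are Cxcl1 (chr5:90890995-90891294, plus strand), Cxcl9 (chr5:92328030-92328329, minus strand), Cxcl10 (chr5:92348840-92349139, minus strand) and Cxcl12 (chr6:117168285-117168584, plus strand). Capitals mark matches to an NF-κB motif or to ISRE (GAAA, any 2 bases, GAAA), and GAS (TTCNNNGAA) was searched as well, all on both strands.
Cxcl1: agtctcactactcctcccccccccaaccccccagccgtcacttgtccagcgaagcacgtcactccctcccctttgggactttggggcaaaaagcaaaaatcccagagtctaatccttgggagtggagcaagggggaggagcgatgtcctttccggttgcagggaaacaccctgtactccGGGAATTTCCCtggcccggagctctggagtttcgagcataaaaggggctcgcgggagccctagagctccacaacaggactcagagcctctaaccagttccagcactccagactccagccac
Cxcl9: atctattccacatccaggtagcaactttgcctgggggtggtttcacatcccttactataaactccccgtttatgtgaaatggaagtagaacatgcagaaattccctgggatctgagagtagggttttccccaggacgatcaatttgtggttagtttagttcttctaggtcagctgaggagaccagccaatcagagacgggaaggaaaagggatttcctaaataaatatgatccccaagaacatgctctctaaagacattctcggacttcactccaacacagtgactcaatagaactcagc
Cxcl10: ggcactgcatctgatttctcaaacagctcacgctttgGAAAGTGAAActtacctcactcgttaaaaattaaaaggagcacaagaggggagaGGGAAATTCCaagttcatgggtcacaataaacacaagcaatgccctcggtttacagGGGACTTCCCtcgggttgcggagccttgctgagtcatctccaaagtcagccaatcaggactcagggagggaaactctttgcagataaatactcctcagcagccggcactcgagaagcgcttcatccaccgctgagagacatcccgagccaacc
Cxcl12: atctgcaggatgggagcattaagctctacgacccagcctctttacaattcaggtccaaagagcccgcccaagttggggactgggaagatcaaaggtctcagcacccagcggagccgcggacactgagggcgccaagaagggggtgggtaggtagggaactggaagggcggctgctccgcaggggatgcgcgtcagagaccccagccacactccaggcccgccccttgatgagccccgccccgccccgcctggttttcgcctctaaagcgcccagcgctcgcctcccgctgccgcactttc

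In the Cxcl1 window the capitals are a pair of overlapping NF-κB matches on opposite strands, starting 71 and 70 bases before the transcript start. The Cxcl10 window held the ISRE 213 bases before the start and NF-κB matches at 159 and 103 bases before it. None of the 3 motifs was found in the Cxcl9 and Cxcl12 windows, which says only that these letters are not in these windows. Over the members, 27 of 35 had a window (31 windows in all). An NF-κB match was in 7 of the 31 windows (22.6%), against 4.51% of all 32851 windows: those of Csf1, Il6, Cxcl1, Cxcl2, Cxcl10, Ccl9 and Ltb. GAS was in 5 windows (16.1%, against 8.3% of all), those of Ccl17, Ifng, Cxcl14, Ltb and Lta. ISRE was in the windows of Cxcl10 and Cxcl14 (6.45%, against 3.44%). Some members share neighbouring genes and so are not independent of each other. Not matched to a window were Ccl2, Ccl4, Ccl5, Ccl7, Cxcl16, Il7, Il10 and Il15. A match describes the sequence and does not show that a factor binds there.

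Most of these transcripts were scarce in whole liver. Lta, Ifng and Ccl17 had 3 or fewer reads in every library, which marks them as below detection, and 12 of the 35 stayed at 10 or fewer: Il6, Il10, Il12b, Ifng, Lta, Ccl3, Ccl4, Ccl7, Ccl12, Ccl17, Ccl22 and Cxcl2. A level of 3 reads stands for 0.227 to 0.257 RPKM of Ifng and for 0.506 to 0.574 RPKM of Ccl17, and lower levels could not be shown at this depth. At the other end, 16 members had more than 3 reads in all 15 libraries. Genes passed the filter for a test when enough libraries held about 10 reads, and 20 of the 35 passed it in at least 1 comparison. The 15 that passed in none were the 12 just named with Tnf, Cxcl13 and Cxcl14.

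A pair of chemokines dominated the set at both ages. Cxcl12, which retains haematopoietic cells and acts through the receptor Cxcr4, stood at 88.9, 85.4, 96.3 and 80.4 RPKM in 2-week-old Stab1-/- mice and at 89.0, 100.03, 79.4 and 90.0 RPKM in wildtype mice. At E17.5 its level was 22.5, 23.3 and 26.3 RPKM in Stab1-/- and 25.9, 28.3, 26.9 and 30.7 RPKM in wildtype samples. The genotypes overlapped at both ages, and every 2-week library was above every E17.5 library. Ccl9, a CC chemokine of rodents produced by myeloid cells, was at 63.9, 43.8, 42.2 and 40.5 RPKM in 2-week-old Stab1-/- mice and at 40.9, 37.5, 28.2 and 20.2 RPKM in wildtype mice. At E17.5 it was at 29.2, 29.1 and 37.8 RPKM in Stab1-/- and at 37.3, 45.5, 35.1 and 29.1 RPKM in wildtype samples. Cxcl12 had the highest mean RPKM of the members at 2 weeks and Ccl9 at E17.5. Together they made up 63% of the summed RPKM of the members in 2-week-old Stab1-/- mice, 63.2% in 2-week-old wildtype mice, 53.7% in Stab1-/- and 55.9% in wildtype samples of E17.5. The third was Il18 in each of the 4 groups, the interleukin-1 family member that is released after cleavage by the inflammasome.

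**Figure D1:**
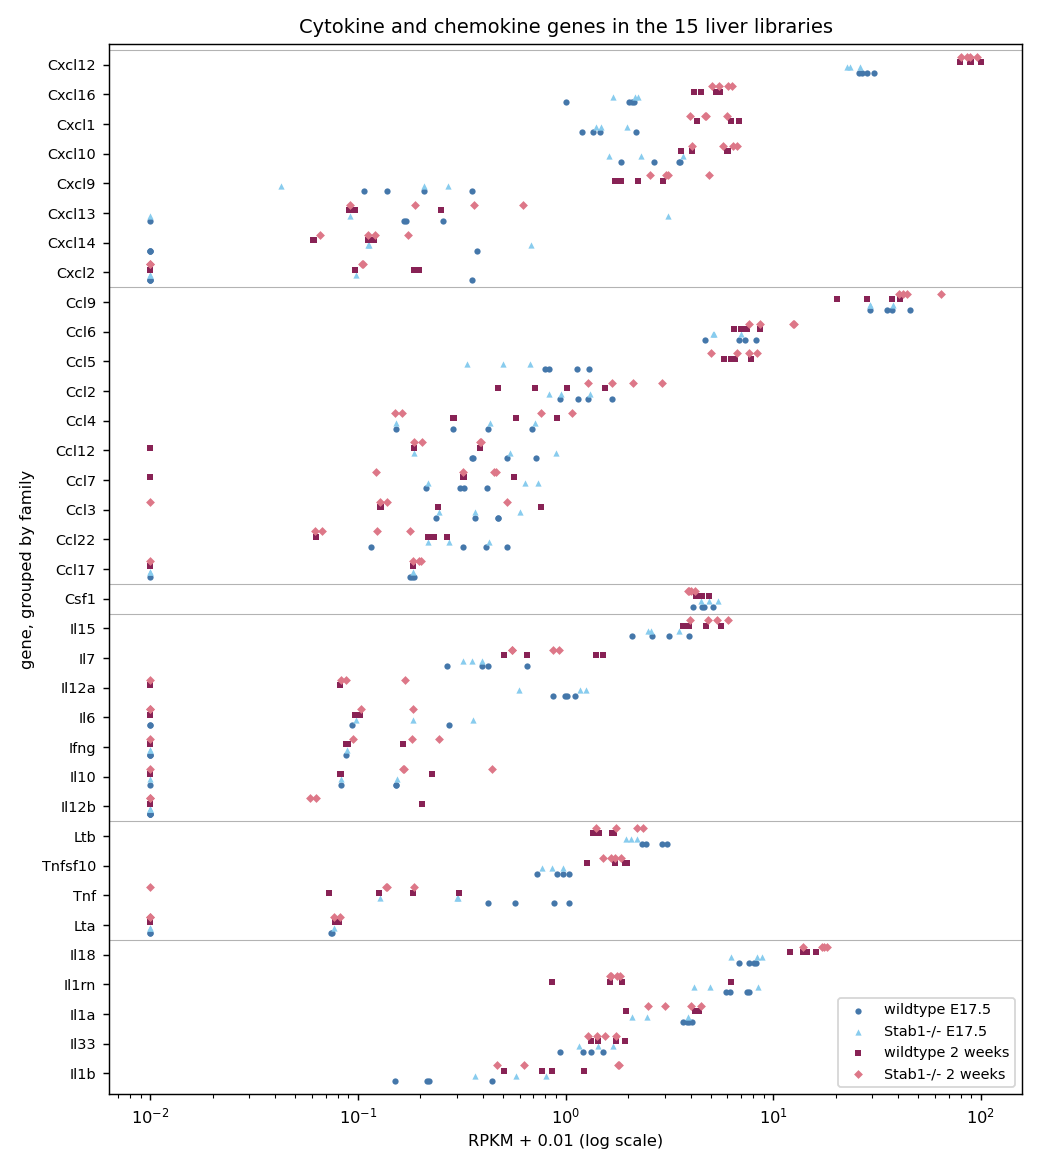
Level of each of the 35 genes in each library as RPKM + 0.01 on a log scale, one row per gene and grouped by family, with 1 point per library and a colour and marker for each of the 4 groups. Cxcl12 and Ccl9 lie at the far right (20.2 to 100.03 RPKM), while Lta, Ifng and Ccl17 sit at or near the left edge, where a value of 0 is drawn at 0.01.

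Between Stab1-/- and wildtype livers no member passed the adjusted threshold of 0.05 in edgeR at either age. At 2 weeks 19 of the 35 members could be tested and 0 were called, beside 2.67% of all 12716 genes tested. At E17.5 it was 0 of 17, beside 0.366% of 13388 genes. A call for the difference of the genotype effect between ages was reached by 0 of 20, beside 1.81% of 13885 genes. DESeq2 and limma called 0 members in each of these comparisons too. At an unadjusted p under 0.05, 5 of 19 members passed at 2 weeks and 0 of 17 at E17.5 in edgeR, beside 23.4% and 12.9% of all genes, so the share at 2 weeks was near the background.

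The 5 at 2 weeks were 4 chemokines with higher values in Stab1-/- mice and Csf1 with lower ones. Ccl2, the monocyte chemoattractant that acts through Ccr2, had 23, 18, 13 and 10 reads in Stab1-/- and 13, 8, 6 and 4 reads in wildtype livers (log2 fold change 1.004 ± 0.36, SE; adjusted p = 0.131). The groups overlapped, and Ccl2 entered the test through the Stab1-/- libraries, since 1 wildtype library reached 10 reads. Ccl9 had a log2 fold change of 0.50 ± 0.19 (adjusted p = 0.143) and its neighbour Ccl6, another myeloid CC chemokine, of 0.39 ± 0.16 (adjusted p = 0.175). The genes of Ccl9 and Ccl6 lie side by side on chromosome 11 (GRCm38, 83572919 to 83578636 and 83587882 to 83593087). Ccl6 was at 12.6, 12.4, 8.58 and 7.65 RPKM in Stab1-/- and at 8.65, 7.44, 6.95 and 6.46 RPKM in wildtype mice. Both genes overlapped between genotypes. Cxcl9, an interferon-γ-induced chemokine that attracts T cells through Cxcr3, was at 4.92, 3.09, 3.03 and 2.55 RPKM in Stab1-/- and 2.93, 2.22, 1.85 and 1.71 RPKM in wildtype mice (log2 fold change 0.55 ± 0.21, adjusted p = 0.146), again with overlap. With the replicate number as a block, Ccl9 (0.52, adjusted p = 0.0315) and Cxcl9 (0.54, adjusted p = 0.0398) passed the threshold, and neither did when GC content was corrected in the same fit (0.39, adjusted p = 0.0694, and 0.49, adjusted p = 0.0643). The sign was kept in every full fit, with log2 fold changes of 0.37 to 0.61 for Ccl9 and 0.46 to 0.61 for Cxcl9.

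Marker lists of myeloid cells held no calls between genotypes at 2 weeks, though most of their values were higher in Stab1-/- mice. The 9 Kupffer cell genes together stood at 521 to 681 RPKM in 2-week-old Stab1-/- mice and at 384 to 555 RPKM in wildtype mice, with 8 of 9 log2 fold changes above 0 and 0 of 9 called. The 8 granulocyte genes stood at 192 to 426 RPKM in Stab1-/- and 32.4 to 149 RPKM in wildtype mice, with 7 of 7 tested above 0 and 0 called. The paper, by a test it does not name, lists S100a8, S100a9 and Camp of these genes as significantly higher in Stab1-/- livers at this age. At E17.5 the granulocyte sum was 3670 to 3977 RPKM in Stab1-/- and 5194 to 8384 RPKM in wildtype samples, with 8 of 8 below 0 and 0 called. The 6 monocyte genes stood at 82.9 to 119 against 65.6 to 102 RPKM at 2 weeks, with 4 of 6 above 0, and at 344 to 397 against 421 to 594 RPKM at E17.5. Of the defining markers of these 3 lists, 0 had 3 or fewer reads in every library of a group. At 2 weeks the Kupffer cell and monocyte sums overlapped between genotypes and the granulocyte sums did not. Calls were found among other cells: of 8 stellate cell genes 3 were lower in Stab1-/- mice (37.5%, beside 2.67% of all genes), namely Reln (log2 fold change −0.62), Col1a1 (−1.03) and Hand2 (−0.60), while the summed level of the list overlapped (212 to 244 against 217 to 262 RPKM). Of 7 sinusoidal endothelial genes 1, Kdr, was lower (−0.43, adjusted p = 0.0476). The part of any of these lists in the values of chemokines, Csf1, receptors or signalling genes was not tested.

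Csf1, the growth factor of macrophages, was the 1 tested member whose 2-week groups did not overlap, beside 14.9% of all genes. It was at 4.18, 3.86, 3.90 and 3.99 RPKM in Stab1-/- and at 4.90, 4.52, 4.22 and 4.36 RPKM in wildtype mice. Each Stab1-/- value was below each wildtype value by a small margin (log2 fold change −0.27 ± 0.10, SE; adjusted p = 0.133; exact permutation test on RPKM, two-sided, p = 0.0286, the smallest that 4 against 4 can give and not adjusted for the members examined). At E17.5 Csf1 was at 5.42, 4.90 and 4.48 RPKM in Stab1-/- and 4.10, 4.66, 5.11 and 4.55 RPKM in wildtype samples, with overlap, and the difference of the genotype effect between ages was −0.39 ± 0.13 (adjusted p = 0.102). Its receptor Csf1r had a log2 fold change of −0.14 ± 0.12 at 2 weeks (adjusted p = 0.477).

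For some of the abundant members the intervals were narrow, while the 2-week interval of Ccl9 was wider than that of Cxcl12. The 95% interval of the 2-week genotype log2 fold change ran from −0.33 to 0.09 for Cxcl12, from −0.13 to 0.42 for Il18, from −0.12 to 0.42 for Cxcl16 and from −0.48 to 0.44 for Ccl5. At E17.5 it ran from −0.35 to 0.04 for Cxcl12 and from −0.48 to 0.20 for Ccl9. For scarcer members it was wide, as for Il1b at 2 weeks (−0.56 to 1.35) or Il7 at E17.5 (−1.03 to 0.56).

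**Figure D2:**
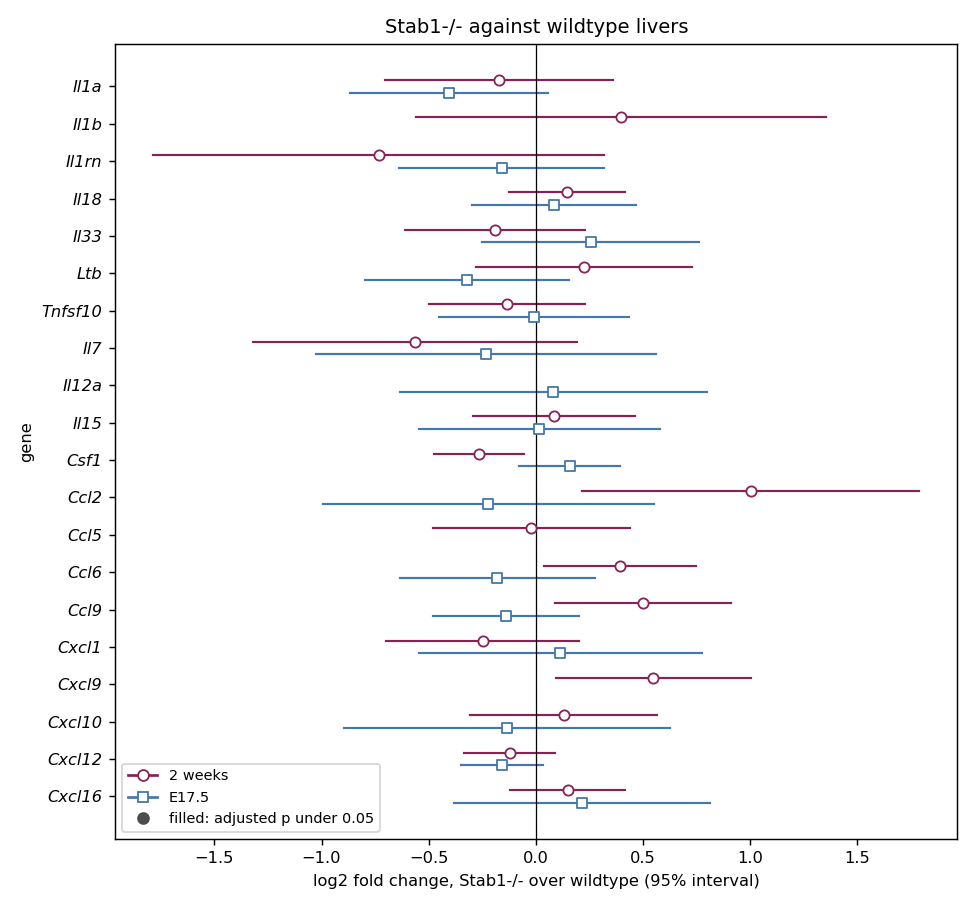
Log2 fold change of Stab1-/- over wildtype with its 95% interval for each gene tested, as circles for 2 weeks and squares for E17.5. All symbols are open because no adjusted p was under 0.05, and Ccl2, Ccl6, Ccl9, Cxcl9 and Csf1 are those whose 2-week interval does not reach 0.

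Tnf, the inflammatory cytokine of monocytes and macrophages whose gene lies beside Lta and Ltb on chromosome 17, was too scarce for the filter. It had 5, 2 and 5 reads in Stab1-/- samples of E17.5 and 18, 7, 10 and 15 reads in wildtype samples. The Stab1-/- values lay below all the wildtype values at that age. In pooled reads this was 12 against 50, or a level 0.326 times that of wildtype (exact interval 0.158 to 0.62, for counting error alone). The exact permutation test on RPKM gave p = 0.0571, where the smallest that 3 against 4 can reach is 0.0286, and in the fit without a filter the log2 fold change was −1.54 ± 0.50 (SE; adjusted p = 0.28). At 2 weeks Tnf had 0, 3, 2 and 2 reads in Stab1-/- and 5, 1, 3 and 2 in wildtype livers, which overlapped and were near the floor of 3 reads.

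Ccl5 also did not overlap at E17.5, at 0.492, 0.660 and 0.326 RPKM (2 to 4 reads) in Stab1-/- and 1.12, 0.826, 0.788 and 1.29 RPKM (5 to 8 reads) in wildtype samples. Its Stab1-/- mean was 0.489 times that of wildtype (exact permutation test, two-sided, p = 0.0286, the smallest possible and not adjusted for the members examined), with an exact interval of 0.201 to 1.08 on pooled reads. It was too scarce for the filter at that age, and the fit without a filter gave −0.94 ± 0.52 (adjusted p = 0.534).

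Both TNF receptors were measured well and did not pass the test between genotypes. Tnfrsf1a, the receptor found on most cells, had log2 fold changes of 0.08 ± 0.10 at 2 weeks (adjusted p = 0.648) and 0.01 ± 0.08 at E17.5 (adjusted p = 0.955). Tnfrsf1b, found mainly on leukocytes and endothelium, had −0.08 ± 0.10 (adjusted p = 0.647) and −0.02 ± 0.08 (adjusted p = 0.925). Ltb, which signals through the lymphotoxin-β receptor, was at 1.95, 2.04 and 2.19 RPKM in Stab1-/- and at 3.06, 2.90, 2.44 and 2.33 RPKM in wildtype samples of E17.5. All Stab1-/- values of Ltb were the lower ones (log2 fold change −0.32 ± 0.21, adjusted p = 0.546; beside 12.2% of all genes without overlap at that age). At 2 weeks Ltb overlapped, at 2.35, 2.19, 1.38 and 1.74 RPKM in Stab1-/- and 1.70, 1.44, 1.34 and 1.67 RPKM in wildtype mice. Tnfsf10, the death ligand TRAIL, stood at 1.85, 1.51, 1.72 and 1.64 RPKM in 2-week-old Stab1-/- mice and 1.72, 1.26, 1.92 and 1.97 RPKM in wildtype mice, which overlapped (−0.13 ± 0.17, adjusted p = 0.663).

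Some values turned on 1 library. Il1rn, which encodes the antagonist of the interleukin-1 receptor, had 43, 43, 39 and 44 reads in 2-week-old Stab1-/- mice and 42, 21, 164 and 49 in wildtype mice. The third wildtype replicate was far above the others. Cxcl13, the chemokine that draws B cells into follicles, had 38, 0 and 1 reads in Stab1-/- samples of E17.5 and 2, 3, 2 and 0 in wildtype samples. Cxcl14 had 13, 2 and 2 reads against 0, 7, 0 and 0. The first Stab1-/- replicate of E17.5, which held the 38 and 13 reads, also had 892 reads of Epcam and 363 of Krt19, while the other Stab1-/- samples had 19 and 77 of Epcam and 25 and 64 of Krt19. The list of 5 cholangiocyte markers includes this pair. Its summed level was 82.0 RPKM at its highest in Stab1-/- and 11.04 RPKM at its highest in wildtype samples of E17.5. The paper's list of genes higher in Stab1-/- livers at E17.5 holds Epcam and Krt19 beside intestinal genes such as Alpi and Fabp2. The marker list therefore does not tell which epithelium these reads came from. That first replicate is 1 of the 3 Stab1-/- samples of E17.5 and enters each comparison that uses this group. The part of those epithelial transcripts in the Cxcl13 and Cxcl14 values was not tested.

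**Figure D3:**
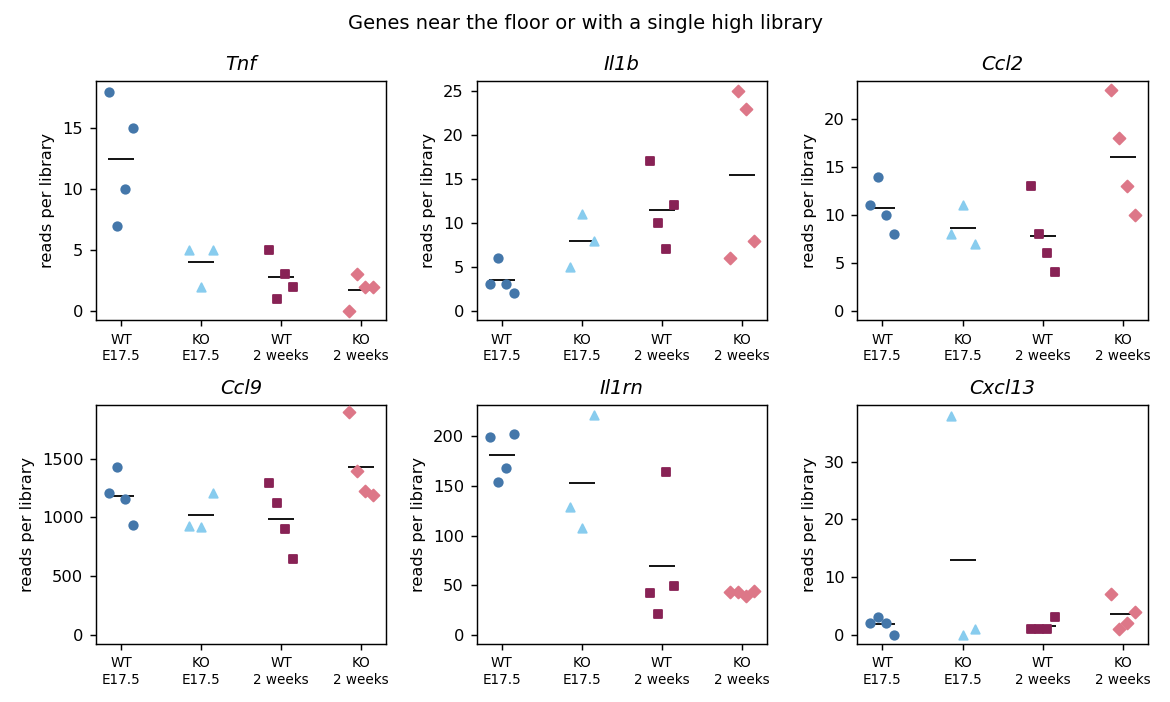
Reads per library of Tnf, Il1b, Ccl2, Ccl9, Il1rn and Cxcl13 in the 4 groups, with 1 point per library and a black bar at the group mean. Tnf is highest in wildtype samples of E17.5 (7 to 18 reads), 1 wildtype library of 2 weeks stands out for Il1rn (164 reads), and 1 Stab1-/- library of E17.5 stands out for Cxcl13 (38 reads).

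More of these genes were called between the ages than between the genotypes. In wildtype livers 13 members rose from E17.5 to 2 weeks, 1 fell and 4 did not pass the test, while 17 of the 35 could not be tested. In Stab1-/- livers 13 rose, 1 fell and 5 did not pass, while 16 could not be tested. Age differences were the rule in the liver as a whole: 71.9% of all genes were called in wildtype (34.9% higher and 37% lower at 2 weeks) and 72.5% in Stab1-/- samples (35.7% and 36.8%), so the share of members called was near the background. In RPKM the ages did not overlap for 8 higher and 2 lower of 18 tested members in wildtype and for 12 and 2 of 19 in Stab1-/- samples, beside 69.1% and 72% of all genes. The median log2 fold change of the tested members was 1.04 in wildtype and 1.18 in Stab1-/- samples, beside −0.01 over all genes in both. A member that is scarce at 1 age enters such a test only if it is higher at the other age, and this held for Ccl5, Cxcl9 and Il12a in wildtype and for Ccl5, Cxcl9, Ccl2, Il7 and Il1b in Stab1-/- samples.

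The same 11 genes rose in both genotypes: Il18, Tnfsf10, Il7, Il15, Ccl5, Ccl6, Cxcl1, Cxcl9, Cxcl10, Cxcl12 and Cxcl16. Il33 and Csf1 were called in wildtype alone and Ccl9 in Stab1-/- alone. Ccl2 was called in Stab1-/- samples and was not tested in wildtype. Whether such changes differed between genotypes was tested by the difference of the genotype effect between ages. That test did not pass for any of these genes (adjusted p = 0.407 for Il33, 0.102 for Csf1, 0.165 for Ccl2 and 0.168 for Ccl9).

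All 5 CXC chemokines with enough reads rose in both genotypes. Of these, Cxcl9 entered the test through its 2-week libraries alone, so only a rise could be called for it. Cxcl9 went from 0.128, 0.198, 0.345 and 0.0965 RPKM in wildtype samples of E17.5 to 2.93, 2.22, 1.85 and 1.71 RPKM at 2 weeks, a ratio of mean RPKM of 11.3. In Stab1-/- samples it went from 0.262, 0.197 and 0.0325 RPKM to 4.92, 3.09, 3.03 and 2.55 RPKM, a ratio of 20.7. The ages did not overlap in either genotype, and the log2 fold changes were 3.82 ± 0.31 (adjusted p = 3.1e-07) and 4.55 ± 0.40 (adjusted p = 1.7e-06). Whether these rises differed between genotypes was tested in the fit over all libraries, with a difference of 0.75 ± 0.63 (adjusted p = 0.491).

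Cxcl10, the gene beside Cxcl9 that is induced by interferons, rose less, by 1.11 ± 0.24 in wildtype (adjusted p = 0.00131) and 1.39 ± 0.29 in Stab1-/- samples (adjusted p = 0.00129). It was at 3.57, 2.65, 3.50 and 1.84 RPKM in wildtype samples of E17.5 and 5.97, 6.03, 4.03 and 3.60 RPKM at 2 weeks. The wildtype ages were separated by a narrow gap. Cxcl1, a neutrophil attractant that acts through Cxcr2, rose by 2.16 ± 0.25 and 1.81 ± 0.25, from 1.35, 1.19, 2.18 and 1.45 RPKM to 6.84, 4.29, 6.25 and 4.28 RPKM in wildtype livers. Cxcl16, the ligand of Cxcr6, rose by 1.79 ± 0.21 and 1.73 ± 0.15. The log2 fold changes of Cxcl12 were 2.04 ± 0.10 (adjusted p = 3.4e-09) and 2.09 ± 0.11 (adjusted p = 3.2e-08), and their difference between genotypes was 0.07, with an interval from −0.22 to 0.35. The 3 CXC chemokines without a test were Cxcl2 (0 to 4 reads), Cxcl13 and Cxcl14.

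Among the CC chemokines tested Ccl5, which attracts T cells and monocytes, had the largest rise. It entered the test through its 2-week libraries alone, so only a rise could be called for it. It had 7, 5, 5 and 8 reads in wildtype samples of E17.5 and 35, 36, 40 and 48 reads at 2 weeks, and 3, 4 and 2 against 38, 51, 28 and 43 reads in Stab1-/- samples. The ages were far apart in both genotypes (log2 fold changes 3.05 ± 0.25 and 3.98 ± 0.37, with ratios of mean RPKM of 6.53 and 14.01), and the difference between genotypes was 0.96 ± 0.46 (adjusted p = 0.266). Ccl6 rose by 0.48 ± 0.17 in wildtype (adjusted p = 0.0215) and by 1.07 ± 0.19 in Stab1-/- samples (adjusted p = 0.00045), and without the first wildtype replicate of 2 weeks its adjusted p in wildtype was 0.0528. Ccl9 had 0.14 ± 0.19 in wildtype (adjusted p = 0.518) and rose by 0.79 ± 0.16 in Stab1-/- samples (adjusted p = 0.000918). Ccl2 rose by 1.16 ± 0.36 in Stab1-/- samples (adjusted p = 0.0128), from 8, 11 and 7 reads to 23, 18, 13 and 10. Without the third Stab1-/- replicate of E17.5 its adjusted p was 0.0534. Ccl2 entered this test through its 2-week libraries, so only a rise could be called for it. In wildtype livers Ccl2 had 11, 14, 10 and 8 reads at E17.5 and 13, 8, 6 and 4 at 2 weeks and was not tested. The others (Ccl3, Ccl4, Ccl7, Ccl12, Ccl17 and Ccl22) had at most 10 reads in any library and were not tested. Ccl22, a ligand of Ccr4, had 8, 5 and 4 reads at E17.5 and 3, 1, 1 and 2 at 2 weeks in Stab1-/- samples, which did not overlap (−1.30 ± 0.65 in the fit without a filter, adjusted p = 0.109), and in wildtype its ages overlapped.

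**Figure D4:**
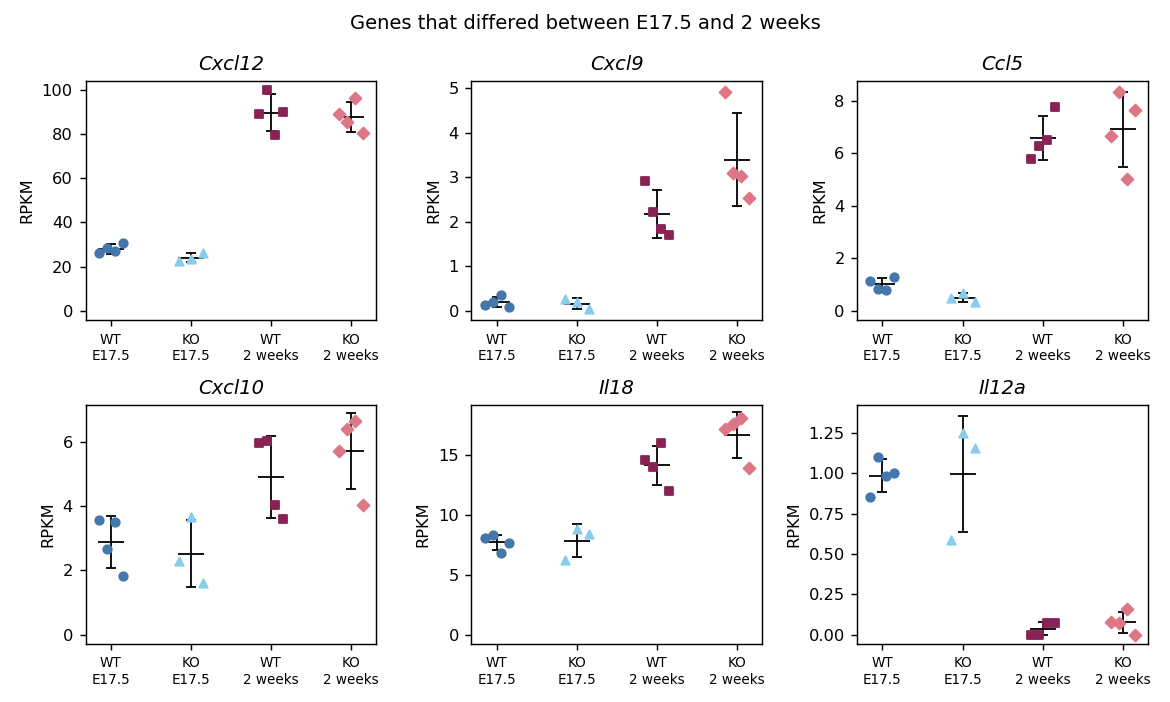
RPKM of Cxcl12, Cxcl9, Ccl5, Cxcl10, Il18 and Il12a in the 4 groups, with 1 point per library and the mean ± SD in black (n = 3 for Stab1-/- at E17.5 and n = 4 elsewhere). Every 2-week library of the 5 rising genes lies above every E17.5 library of the same genotype, with the narrowest gap for Cxcl10 (3.57 to 3.60 RPKM in wildtype), and Il12a lies near 0 at 2 weeks.

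The interleukin-1 family split by member. Il18 rose in both genotypes, from 8.04, 8.29, 6.85 and 7.66 RPKM to 14.6, 13.97, 15.98 and 12.015 RPKM in wildtype livers (log2 fold change 1.24 ± 0.13, adjusted p = 3.2e-06). In Stab1-/- livers it went from 6.25, 8.83 and 8.39 RPKM to 17.2, 17.6, 18.1 and 13.9 RPKM (1.30 ± 0.17, adjusted p = 3.5e-05). The ages did not overlap in either genotype. Il33, an alarmin of endothelial and stromal cells, rose by 0.73 ± 0.20 in wildtype livers (adjusted p = 0.00613), and its values overlapped between the ages. Il1rn went the other way: in Stab1-/- livers it fell from 129, 108 and 222 reads to 43, 43, 39 and 44 reads (log2 fold change −1.55 ± 0.24, adjusted p = 0.000128). In wildtype livers it had 199, 154, 168 and 203 reads at E17.5 and 42, 21, 164 and 49 at 2 weeks (−0.99 ± 0.43, adjusted p = 0.0571), and without the third 2-week replicate it fell by 1.86 on the log2 scale (adjusted p = 3.2e-05).

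Il1a had log2 fold changes of 0.29 ± 0.21 in wildtype (adjusted p = 0.227) and 0.53 ± 0.26 in Stab1-/- livers (adjusted p = 0.0875). The fourth wildtype replicate of 2 weeks had 41 reads against 82 to 92 in the others, and without it the wildtype value was 0.51 (adjusted p = 0.00389). Without the third Stab1-/- replicate of E17.5 the Stab1-/- value was 0.83 (adjusted p = 0.0164). Il1b, the inflammasome-dependent cytokine of myeloid cells, had 3, 6, 3 and 2 reads in wildtype samples of E17.5 and 17, 10, 7 and 12 at 2 weeks, with no overlap. It did not pass the filter there, and in the fit without a filter its log2 fold change was 2.09 ± 0.44 (adjusted p = 0.0009). In Stab1-/- samples Il1b had 5, 11 and 8 against 6, 25, 23 and 8 reads, with overlap (1.23 ± 0.53, adjusted p = 0.0582).

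Il12a fell from E17.5 to 2 weeks. It encodes the p35 subunit shared by interleukin-12 and interleukin-35. It had 12, 15, 14 and 14 reads in wildtype samples of E17.5 and 0, 0, 1 and 1 at 2 weeks, and 8, 17 and 16 against 1, 1, 2 and 0 in Stab1-/- samples. The ages did not overlap. Per read counted on genes, the E17.5 level in wildtype was 26.7 times that of 2 weeks (exact interval 7.06 to 226, on 55 against 2 reads), and 12.9 times in Stab1-/- samples (4.68 to 49.7, on 41 against 4 reads), with counting error alone in both intervals. The wildtype change passed edgeR's test (adjusted p = 1.8e-05). Il12a entered that test through its E17.5 libraries alone, so only a fall could be called for it. In Stab1-/- samples Il12a did not pass the filter in the fit of those 2 groups, and it was called in the fit without a filter (adjusted p = 0.0008) and in the fit over all libraries (adjusted p = 4.38e-05). Il12b, the other chain of interleukin-12, had 0 reads in each E17.5 library and at most 4 at 2 weeks.

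Il15 and Il7, which keep lymphocytes alive, both rose. Il15 went from 3.15, 3.91, 2.60 and 2.09 RPKM to 4.71, 5.60, 3.92 and 3.69 RPKM in wildtype livers (log2 fold change 0.96 ± 0.21, adjusted p = 0.00122). In Stab1-/- livers it went from 3.52, 2.58 and 2.47 RPKM to 4.85, 5.32, 6.07 and 3.96 RPKM (1.04 ± 0.20, adjusted p = 0.000711). The Stab1-/- ages did not overlap and the wildtype ages did. Il7 rose by 1.58 ± 0.38 in wildtype (adjusted p = 0.00259) and 1.26 ± 0.32 in Stab1-/- livers (adjusted p = 0.00413). In Stab1-/- livers Il7 entered the test through its 2-week libraries, so only a rise could be called for it there. Tnfsf10 rose by 1.30 ± 0.19 and 1.18 ± 0.17, with no overlap of the ages. Ltb had −0.44 ± 0.20 in wildtype livers (adjusted p = 0.0675), where the ages did not overlap, and 0.12 ± 0.26 in Stab1-/- livers (adjusted p = 0.699).

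Tnf, like Il12a, was highest before birth in wildtype livers, at 18, 7, 10 and 15 reads against 5, 1, 3 and 2 at 2 weeks. The pooled reads give a level at E17.5 that was 4.42 times that of 2 weeks (exact interval 2.27 to 9.41), and the fit without a filter gave a log2 fold change of −1.73 ± 0.49 (adjusted p = 0.0078). In Stab1-/- samples the reads overlapped between the ages, at 5, 2 and 5 against 0, 3, 2 and 2. The difference of the genotype effect between ages was 0.93 ± 0.94 in the fit without a filter (adjusted p = 0.688).

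Small rises depended on the scaling. The values above use TMM scaling, which sets the median gene near 0, whereas RPKM uses the total of reads, and on the log2(RPKM + 0.1) scale the median of all genes between the ages was −0.37 in wildtype and −0.23 in Stab1-/- samples. Csf1, called higher at 2 weeks in wildtype livers (0.33 ± 0.10, adjusted p = 0.0101), had −0.03 on the RPKM scale, which is above that median but not above 0. Il33 (0.35) and Ccl6 (0.14) in wildtype kept their sign but lost the call there (adjusted p = 0.0958 and 0.466). On that scale 10 members rose and 3 fell in wildtype livers, in place of 13 and 1.

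Markers of other cells moved with age as well, as did 71.9% of all genes in wildtype and 72.5% in Stab1-/- samples. Between E17.5 and 2 weeks all 8 granulocyte genes and all 7 erythroid genes fell in both genotypes, and the monocyte genes fell in 6 of 6 cases in wildtype and 5 of 6 in Stab1-/- samples. Among 8 stellate cell genes 7 rose and 1 fell in wildtype, with a summed level of 130 to 140 RPKM at E17.5 and 217 to 262 RPKM at 2 weeks. Among 7 sinusoidal endothelial genes 6 rose and 1 fell in wildtype (96.8 to 105 against 149 to 180 RPKM), and among 9 Kupffer cell genes 2 rose and 1 fell. In Stab1-/- samples 5 stellate cell genes rose and 1 fell, 2 sinusoidal genes rose and 1 fell, and 4 Kupffer cell genes rose and 2 fell. The T and NK cell list was low at both ages (12.1 to 15.6 RPKM at E17.5 and 7.38 to 10.1 RPKM at 2 weeks in wildtype, and 9.92 to 11.6 and 8.999 to 11.4 RPKM in Stab1-/- samples), with 1 gene higher and 1 lower in wildtype and 2 higher and 1 lower in Stab1-/- samples. The part of these shifts in the cytokine values was not tested.

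**Figure D5:**
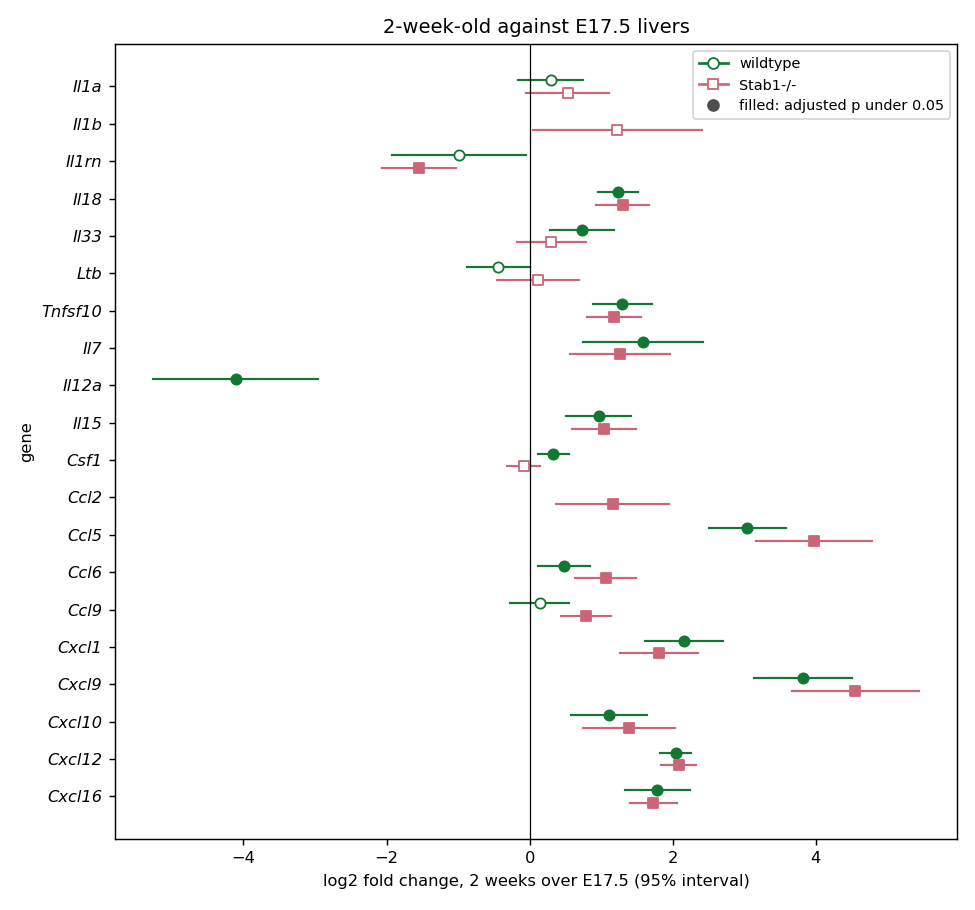
Log2 fold change of 2 weeks over E17.5 with its 95% interval for each gene tested, as circles for wildtype and squares for Stab1-/-, filled where the adjusted p was under 0.05. All 5 CXC chemokines lie to the right of 0 in both genotypes, Il12a (wildtype) lies at −4.11 and Il1rn lies to the left of 0 in both.

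Some receptors of these mediators were called between genotypes at 2 weeks. Whether their share of calls differed from that of the ligands was not tested. Of 39 receptor genes 29 were tested at 2 weeks, and 2 were higher and 1 lower in Stab1-/- mice (10.3%, beside 2.67% of all genes); at E17.5 it was 0 of 32. Ccr3, the eotaxin receptor of eosinophils, had 39, 43, 55 and 23 reads in Stab1-/- and 16, 14, 14 and 8 in wildtype mice, without overlap (log2 fold change 1.58 ± 0.29, adjusted p = 0.0157). Il1rap, the accessory chain of the receptors for interleukin-1 and interleukin-33, was at 44.1, 36.2, 38.2 and 40.9 RPKM against 30.5, 28.7, 25.9 and 28.0 RPKM, also without overlap (0.41 ± 0.09, adjusted p = 0.0455). Its adjusted p was 0.233 with GC-content offsets and between 0.0542 and 0.129 whichever library was left out. Il6st, the signal-transducing chain of the interleukin-6 receptor, was at 14.5, 13.8, 15.9 and 14.6 RPKM in Stab1-/- and 19.9, 16.8, 21.8 and 21.2 RPKM in wildtype mice, lower in each (−0.53 ± 0.11, adjusted p = 0.0319). The ligand Il6 had 0 to 2 reads per library at that age.

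Of 20 genes of signalling and feedback 18 were tested at 2 weeks. Zfp36 and Cish were lower in Stab1-/- mice (11.1%, beside 2.67% of all genes), while 0 of 20 were called at E17.5. Zfp36 encodes tristetraprolin, which binds and destabilizes cytokine transcripts such as that of Tnf. It was at 13.3, 14.7, 16.7 and 16.2 RPKM in Stab1-/- and 25.2, 23.1, 28.3 and 17.0 RPKM in wildtype mice (log2 fold change −0.71 ± 0.15, adjusted p = 0.031). The Stab1-/- values were all lower. Cish, a feedback inhibitor of STAT5 signalling, was at 4.36, 3.24, 6.18 and 10.7 RPKM against 19.7, 15.5, 13.9 and 12.3 RPKM, all lower as well (−1.40 ± 0.30, adjusted p = 0.0323). Leaving out 1 library raised the adjusted p above 0.05 for Il6st in 6 of 8 cases (up to 0.104), for Zfp36 in 6 of 8 (up to 0.108) and for Cish in 5 of 8 (up to 0.109), with the direction kept, while Ccr3 stayed under 0.05 in each of the 8. Tnf was too scarce at 2 weeks for a comparison.

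With age the receptors moved in both directions. In wildtype livers 12 rose and 14 fell of 32 tested (81.2% called, beside 71.9% of all genes). In Stab1-/- livers 15 rose and 13 fell of 33 (84.8% called, beside 72.5% of all genes). The largest falls in wildtype were those of Il1rl1, the interleukin-33 receptor (−5.58), Ccr1 (−4.81), Il18rap (−4.39) and Il1r2, the decoy receptor of interleukin-1 (−4.37). The largest rises were those of Il1rap (3.46), the chemokine scavenger Ackr2 (1.86), Il15ra (1.73) and Ltbr (1.42). In Stab1-/- livers the largest falls were Il1rl1 (−5.66), Il18rap (−3.45), Cxcr4 (−3.40) and Darc, the atypical chemokine receptor of red cells and venules (−3.39). The largest rises there were Ccr3 (4.53), Il1rap (3.76), Cxcr6 (2.71) and Il15ra (1.54). A receptor that is scarce at one age could be called in a single direction, as held for Il1rl1 in wildtype and Cxcr6 in Stab1-/- livers.

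Ligand and receptor went opposite ways in several pairs. Cxcl12 rose while Cxcr4 fell from 12.4, 10.98, 12.2 and 11.8 RPKM to 0.682, 1.61, 0.982 and 0.463 RPKM in wildtype livers (−3.31 ± 0.24, adjusted p = 9.0e-08). Cxcl1 rose while Cxcr2 fell (−2.62 ± 0.15 in wildtype and −1.88 ± 0.19 in Stab1-/- livers). Il18 rose while Il18rap fell, and Il33 rose while Il1rl1 fell from 247, 250, 215 and 328 reads to 6, 4, 2 and 4 in wildtype livers. Other pairs rose together: Il15 with Il15ra and Cxcl16 with Cxcr6 in Stab1-/- livers, where Cxcr6 had 3, 1 and 4 reads at E17.5 and 12, 23, 9 and 15 at 2 weeks. Cxcr6 entered that test through its 2-week libraries alone, so only a rise could be called for it. Il1rl1 in wildtype livers entered through its E17.5 libraries alone, so only a fall could be called for it. These pairs were picked after their values were seen. Several of the falling receptors, among them Cxcr2 and Cxcr4, are carried by the myeloid cells whose markers fell over the same interval, and the part of that shift was not tested.

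The signalling genes were divided too, with 7 rising and 6 falling of 20 in wildtype livers (65% called, beside 71.9% of all genes). In Stab1-/- livers 7 rose and 7 fell (70% called, beside 72.5% of all genes). Socs2, a feedback inhibitor induced by growth hormone, had the largest rise in both (3.26 ± 0.40 and 3.28 ± 0.47). Zfp36 rose by 1.41 ± 0.14 in wildtype and by 0.34 ± 0.12 in Stab1-/- livers (adjusted p = 2.5e-06 and 0.0219), and this difference passed its own test (−1.05 ± 0.20, adjusted p = 0.0224). Irak3 fell by 1.59 and 1.49 on the log2 scale, Stat4 by 1.32 and 1.91, and Socs1, a brake on interferon signalling, by 1.06 and 1.15.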

How the data were processed

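Whole-liver RNA-seq of 15 libraries was analysed from 1 table. Per library, the authors deposited the counts of reads that map to 1 place, not normalized, the RPKM made from them, and the covered percent of the gene model. The aligner, genome build, strand setting and test are not given in the sources used here. Reads shared by chemokine genes of like sequence drop out of such counting.

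The members and all gene lists were chosen with earlier results of these data known. edgeR 4.0.16 (R 4.3.3) was run on the counts with TMM scaling, filterByExpr (minimum count 10, minimum total 15) and the two-sided quasi-likelihood test, on the 2 groups compared, or on all 15 libraries for the difference between ages. Adjustment was by Benjamini and Hochberg over all genes tested, and genes under 0.05 are called. SE is the standard error of the log2 fold change. RPKM values of single genes were set against each other with exact permutation tests, two-sided, and pooled reads with exact Clopper-Pearson intervals (95%, counting error only). A level of 3 reads was the floor.

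The text names members called between genotypes, those with most RPKM in each family, and receptor and signalling genes called between genotypes or, between ages, the 4 receptors with the largest change in each direction. Other genes given by library, among them Tnf, Ccl2, Cxcl9, Ccl5, Il12a, Il1rn and Cxcl13, were chosen after their values were seen. Alternatives were DESeq2 1.42.0, median-of-ratios scaling, no filter, the replicate number as a block, limma 3.58.1 on log2(RPKM + 0.1) and log2(RPKM + 1), 1 fit over all libraries, and leaving out each library. GC-content offsets were added after seeing the data. The fits were tested on simulated counts. No library was a repeat of another (chi-square per degree of freedom at least 5.41 within groups).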

Additional observations from a re-analysis of the deposited data

Results flagged for a closer look

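In groups of 4 libraries, 6 of 77 sets of RPKM values held a library standing apart from the other 3. For normally distributed values chance gives about 1 in 20 (3.85 sets). That rate does not hold for sets of few reads, such as those with 0 in the other 3 libraries. In 2-week-old Stab1-/- mice the library apart was replicate 1 for Ccl9, at 63.9 RPKM with the next at 43.8. In 2-week-old wildtype mice it was replicate 4 for Il1a, at 1.95 RPKM with the next at 4.19, and replicate 3 for Il12b, at 0.193 RPKM from 4 reads where the others had 0. In wildtype samples of E17.5 it was replicate 4 for Cxcl16, at 0.993 RPKM with the next at 2.01, replicate 1 for Cxcl2, at 0.343 RPKM from 4 reads, and replicate 2 for Cxcl14, at 0.362 RPKM from 7 reads.

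The effect of genotype differed between the ages for 5 receptor and signalling genes, in the test of the difference itself over all 15 libraries (edgeR's quasi-likelihood test). They were 3 of 35 receptors tested (8.57%) and 2 of 20 signalling genes (10%), beside 1.81% of all 13885 genes. The difference, as the log2 effect at 2 weeks minus that at E17.5, was −0.77 for Il6st (adjusted p = 0.0263), −0.73 for Stat3 (adjusted p = 0.0453) and −1.05 for Zfp36 (adjusted p = 0.0224). It was 1.41 for Ccr2 (adjusted p = 0.0493) and 2.65 for Ccr3 (adjusted p = 0.0458). The granulocyte genes moved with the difference for Ccr2 and Ccr3, with 3 of 8 called (37.5%) and 8 of 8 above 0. Of 6 monocyte genes 5 were above 0 and 0 were called. The part of either list was not tested. The calls of Stat3, Ccr2 and Ccr3 were lost in the fit without a filter, at adjusted p = 0.0511, 0.0518 and 0.0518, and leaving out 1 library raised the adjusted p of each above 0.05 in most cases, up to 0.126.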

How the results depend on the processing

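Members called between genotypes numbered 0 at E17.5 and for the difference between ages under every alternative, and 0 at 2 weeks except with the replicate block (2 higher, Ccl9 and Cxcl9). At 2 weeks the deviations of same-numbered libraries all correlated above 0 (r from 0.023 to 0.204). Libraries of different numbers ranged more widely (r from −0.258 to 0.283, most of them below 0). At E17.5 r ran from −0.178 to 0 for the same number and from −0.1 to 0.262 for different ones. Not every library was closest to its own number, so the numbers were not taken as pairs. Whether same-numbered libraries of 2 weeks shared a batch was not tested. The block moved all-gene calls at 2 weeks from 119 higher and 221 lower to 642 and 539, and at E17.5 from 26 and 23 to 10 and 13.

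Between ages, members called lower numbered 1 in wildtype and 2 with no filter, the block, all libraries in 1 fit and GC-content offsets with or without the block, and 3 with limma at either pseudocount. In Stab1-/- samples they numbered 1, and 2 with no filter, limma at either pseudocount and all libraries in 1 fit. Leaving out each library gave 1 to 2 in both genotypes. Csf1 in wildtype reversed with limma on RPKM (−0.0299 with a pseudocount of 0.1 and −0.0253 with 1). Limma on log2(RPKM + 0.1) also moved the all-gene split to 3093 higher and 6826 lower in wildtype (4667 and 4948 with edgeR), 3813 and 5896 in Stab1-/- samples (4791 and 4945), 120 and 99 for genotype at 2 weeks, 19 and 46 at E17.5, and 225 and 66 for the difference (111 and 140). DESeq2 called 429 and 458 genes at 2 weeks, 107 and 112 at E17.5 and 448 and 618 for the difference. The cause of these shifts was not tested. Members below detection numbered 3, or 12 with a floor of 10 reads. Depth limits all genes near 10 reads.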
